A study of Mus musculus with 12 samples.

Results

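Ntn4, Rln3 and Syp are 3 of the 55450 genes counted in 12 RNA libraries from mouse thymus, and 3 of the 15361 that passed the filter on low counts. They were chosen by their levels in these same libraries, as genes of neural or hormone type whose RNA was raised in Eos- Tregs over Tconv, so that contrast is given below as a description with no test. Each is the single gene of its symbol in the count table, and all 3 passed the filter.

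The libraries came from 3 CD4+ populations, with 4 libraries each, sorted from thymuses. All mice were of the cross CD4-Cre x Foxp3-GFP. All groups therefore carried the Cre driven by the CD4 promoter and the green fluorescent Foxp3 reporter, and the labels name no deleted allele. Eos+ Tregs were Foxp3+ cells bearing both Ccr6 and Cxcr4, Eos- Tregs were Foxp3+ cells lacking both, and Tconv were the Foxp3- conventional cells. The labels disagree on what defines the Treg groups, since a genotype tag calls them Eos+ and Eos- while the protocol gives these gates on Ccr6 and Cxcr4. Ikzf4 encodes Eos, an Ikaros family transcription factor, and its RNA stood at 314 ± 17.5, 171 ± 12.7 and 25.3 ± 2.22 CPM (SD, n = 4) in these 3 groups. CPM is the count relative to the library total after scaling by TMM, a factor that corrects for differences in composition. The labels give neither the age of the mice nor whether the replicates were separate animals, so a p-value here measures library-to-library spread, part of which may be technical. The series title concerns Eos and the Tregs that return to the thymus.

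Depth ran from 23943689 to 37902528 expected counts per library. The Treg libraries numbered 1 had little Foxp3 RNA for their gate, at 55.0 CPM in Eos+ Tregs and 53.3 CPM in Eos- Tregs against 485 to 862 CPM in the other Treg libraries. On the second principal component, with 18.0% of the variance, Eos- Treg replicate 1 lay at 19.4 and the other Eos- Treg libraries at -84.8 to -60.7. All 14 genes of a Treg identity list were called higher than Tconv by edgeR in both Treg groups, against 17.3% of all genes for Eos+ Tregs and 8.76% for Eos- Tregs, though Foxp3 missed the threshold with limma-voom in both (adjusted p = 0.0793 and 0.11).

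Ntn4 encodes a secreted netrin, a protein related to laminin chains that binds laminin networks of the basement membrane, while classical netrins guide axons through receptors such as Dcc, neogenin and the Unc5 family. Rln3 encodes relaxin-3, a peptide of the insulin and relaxin family best known as a brain neuropeptide, which is cut from a prohormone and acts on the receptor Rxfp3. Syp encodes synaptophysin, a membrane protein of synaptic vesicles that is used as a marker of neurons and neuroendocrine cells. In the thymus, medullary epithelial cells transcribe many such tissue-restricted genes, in part through Aire.

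The stretches before the transcription starts of the 3 genes are shown because all 3 genes were higher in Tregs and the stretches differ in their letters. They come from the RefSeq promoter table (GRCm38.p6), read 5′ to 3′ on the strand of each gene, and leave out bases that GENCODE M21 annotates as exon, so those of Rln3 and Syp end before the GENCODE exon. The Ntn4 stretch runs to the RefSeq start, holds no annotated exonic base, and lies inside the gene as GENCODE annotates it, downstream of a GENCODE start at 93640681. Capitals mark matches, on either strand, to any of 6 short motifs whose letters are given beside their shares. The Ntn4 stretch is chr10:93640799-93641048 (plus strand), that of Rln3 is chr8:84045001-84045229 (minus strand) and that of Syp is chrX:7638330-7638470 (plus strand).
Ntn4: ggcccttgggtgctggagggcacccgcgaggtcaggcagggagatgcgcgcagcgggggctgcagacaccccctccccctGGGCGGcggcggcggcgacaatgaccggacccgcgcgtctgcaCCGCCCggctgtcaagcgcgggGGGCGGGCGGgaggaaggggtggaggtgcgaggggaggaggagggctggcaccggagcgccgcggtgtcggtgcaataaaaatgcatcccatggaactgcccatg
Rln3: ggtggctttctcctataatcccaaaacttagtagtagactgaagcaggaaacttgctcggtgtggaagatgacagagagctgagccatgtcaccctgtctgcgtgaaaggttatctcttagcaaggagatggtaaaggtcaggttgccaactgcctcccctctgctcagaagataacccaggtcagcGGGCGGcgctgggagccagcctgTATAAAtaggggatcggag
Syp: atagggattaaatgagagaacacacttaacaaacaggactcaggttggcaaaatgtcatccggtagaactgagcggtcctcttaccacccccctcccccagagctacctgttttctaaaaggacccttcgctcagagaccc

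Over the full 250 bases before the RefSeq start, Ntn4 had a GC content of 73.2%, with 26 CpG dinucleotides, against a median GC content of 52.4% over 32851 promoters. Rln3 had 52.8% and 6 CpG, and Syp had 56.4% and 11 CpG. Ntn4 held 4 GC boxes, of which the pair at 105 and 101 bases before the start overlap. Rln3 held a TATA box beginning 40 bases before the start, a GC box at 63 bases and an E box at 6 bases, the last inside the annotated exon and not printed. Syp held 2 GC boxes, at 67 and 49 bases, both inside the first exon as GENCODE annotates it and not printed. Of all promoters of that length, 32.7% held the GC box as searched here (GGGCGG). The TATA box was searched as TATAAA and was held by 12.4% of promoters. For the E box the letters were CACCTG, which 17.2% of all promoters held. A further 3 motifs had no match in these windows. One was the forkhead core GTAAACA, present in 3.17% of promoters of this length. Another was the core of the Ikaros family, TGGGAA, present in 21.6% of promoters. The last was the cyclic AMP response core TGACGT, present in 6.47% of them.

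Ntn4 was highest in Eos- Tregs, Rln3 and Syp were high in both Treg populations, and all 3 were low in Tconv. Ntn4 (ENSMUSG00000020019.4, chromosome 10, 93640681 to 93747207 in mm10, plus strand) stood at 18.6, 19.5, 18.7 and 23.3 CPM in Eos- Treg replicates 1 to 4. In Eos+ Tregs it stood at 2.32, 4.25, 6.15 and 8.59 CPM, and in Tconv at 0.131, 0.426, 0.311 and 0.710 CPM. The 3 groups did not overlap, with every Eos- Treg library above every Eos+ Treg library and every Eos+ Treg library above every Tconv library.

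Rln3 (ENSMUSG00000045232.4, chromosome 8, 84042929 to 84045000, minus strand) stood at 76.8, 70.4, 77.0 and 74.0 CPM in Eos+ Tregs and at 48.0, 57.2, 60.5 and 70.5 CPM in Eos- Tregs. In Tconv it was 2.39, 2.63, 1.83 and 3.52 CPM. Both Treg groups lay far above Tconv, and they met each other where the highest Eos- library reached the lowest Eos+ library.

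Syp (ENSMUSG00000031144.15, chromosome X, 7638471 to 7653256, plus strand) stood at 31.6, 38, 28.0 and 19.8 CPM in Eos+ Tregs and at 25.6, 18.4, 20.3 and 16.8 CPM in Eos- Tregs. In Tconv it was 1.21, 0.674, 0.590 and 0.868 CPM. The Treg groups overlapped each other, and neither overlapped Tconv.

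**Figure D1:**
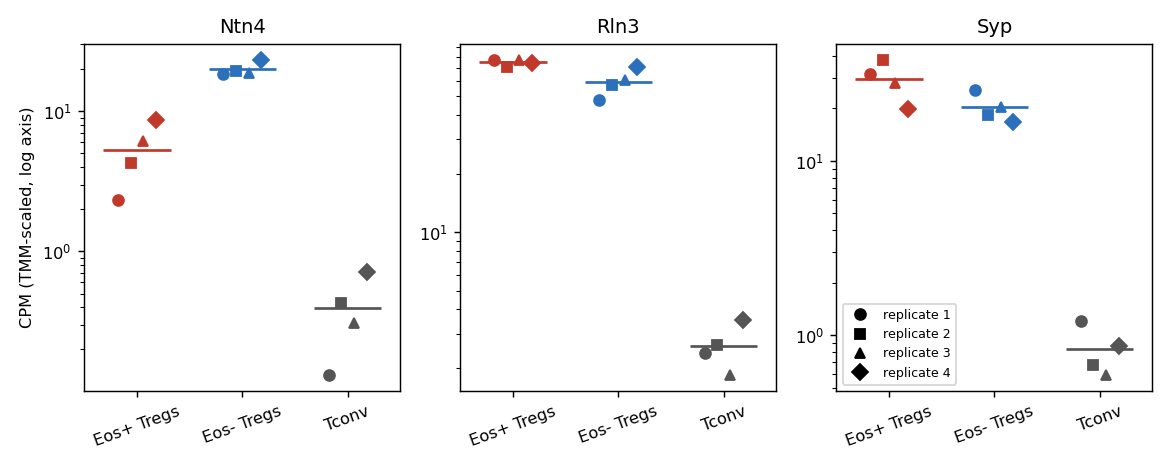
CPM on TMM-scaled totals (log axis) of Ntn4, Rln3 and Syp in the 12 libraries, with 1 symbol per replicate number and a bar at the mean of each group of 4. Ntn4 falls into 3 separate groups, with Eos- Tregs highest at 18.6 to 23.3 CPM, whereas Rln3 and Syp separate both Treg groups from Tconv.

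The genes differ in length, so levels between them are given as RPKM, which divides CPM by the kilobases of annotated exon. Rln3, with only 634 exonic bases, was the most abundant of the 3 on that scale, at 118 ± 4.88 RPKM in Eos+ Tregs and 93.1 ± 14.6 RPKM in Eos- Tregs (SD, n = 4). Ranked by RPKM among the tested genes, it lay at percentiles 97.5 to 97.8 in the Eos+ Treg libraries and 95.5 to 97.2 in the Eos- Treg libraries. Ntn4 reached 5.35 ± 0.593 RPKM in Eos- Tregs and 1.42 ± 0.717 RPKM in Eos+ Tregs. Syp reached 5.63 ± 1.45 RPKM in Eos+ Tregs and 3.89 ± 0.735 RPKM in Eos- Tregs. In Tconv the levels were 0.105 ± 0.0649 RPKM for Ntn4, 4.09 ± 1.11 RPKM for Rln3 and 0.160 ± 0.0528 RPKM for Syp. Rln3 in Tconv was thus on a level with Syp in Eos- Tregs per length.

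The spread between libraries also differed by gene. Rln3 was the steadiest in Eos+ Tregs, with a coefficient of variation of 4.15%, against 25.8% for Syp and 50.3% for Ntn4. In Eos- Tregs the order was different, with 11.1% for Ntn4, 15.7% for Rln3 and 18.9% for Syp. The Ntn4 level was lowest in the library numbered 1 and highest in the library numbered 4 in each of the 3 groups. Syp was lowest in the library numbered 4 in both Treg groups. Ddx3y, on the Y chromosome, had counts only in the libraries numbered 1 and 3, at 120 to 187 CPM, so each group held libraries with and without male cells, and its 4 libraries did not all come from the same animals. X-linked Syp was higher in those 2 libraries than in the other 2 in Eos- Tregs, and overlapped between them in Eos+ Tregs and Tconv.

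Eos+ Tregs were set against Eos- Tregs to ask what parts the 2 Treg populations. Ntn4 was 3.75-fold lower in Eos+ Tregs, while the differences of Rln3 and Syp did not pass the test. This comparison was not the one that chose the genes, but it shares the Eos- Treg libraries with it. In edgeR's quasi-likelihood test over 15361 genes, the log2 change of Ntn4 was -1.91 with an SE of 0.41 and an adjusted p of 0.00645, and it was lower in 4 of 4 Eos+ libraries than in any Eos- library. Over all genes, 6.45% were called lower in Eos+ Tregs and 7.86% were lower with no overlap between the groups. Rln3 had a log2 change of 0.34 with an SE of 0.16 (edgeR adjusted p = 0.191). Syp had a log2 change of 0.54 with an SE of 0.23 (edgeR adjusted p = 0.144). These values do not show that Rln3 and Syp were equal in the 2 populations, and with limma-voom the same log2 change of Rln3, 0.34, had an adjusted p of 0.0436. In bulk RNA a lower level can come from fewer cells with the transcript or from less of it per cell, and these cannot be told apart here.

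Within each library the genes can be compared free of depth. The ratio of Ntn4 to Rln3 counts was 0.387, 0.340, 0.310 and 0.330 in Eos- Tregs and 0.0302, 0.0603, 0.0799 and 0.116 in Eos+ Tregs, with no overlap. The mean log2 ratio was -1.55 in Eos- Tregs and -3.96 in Eos+ Tregs, a difference of -2.41 (exact two-sided permutation test, p = 0.029, 0.043 adjusted over the 3 ratios). The ratio of Ntn4 to Syp was 0.726, 1.06, 0.925 and 1.39 in Eos- Tregs and 0.0733, 0.112, 0.220 and 0.433 in Eos+ Tregs, again with no overlap. Its log2 difference was -2.58 (exact two-sided permutation test, p = 0.029, 0.043 adjusted). The ratio of Rln3 to Syp overlapped between the groups, with a log2 difference of -0.17 (exact permutation p = 0.6). With 4 libraries against 4, 0.029 is the smallest p this test can give, and the ratios were compared after the values had been seen. The Eos- Treg values in these ratios also took part in choosing the genes, and both ratios with Ntn4 rest on the same Ntn4 values. The p-values of the ratios are therefore descriptions. The difference for Ntn4 to Syp had an exact p of 0.0571 when any 1 of the 4 Eos- Treg libraries was left out. Taking same-numbered libraries as pairs, an exact sign-flip test over the 4 pairs gave p = 0.125 for both ratios with Ntn4, the smallest it can give, so neither passed, and 0.625 for Rln3 to Syp.

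**Figure D2:**
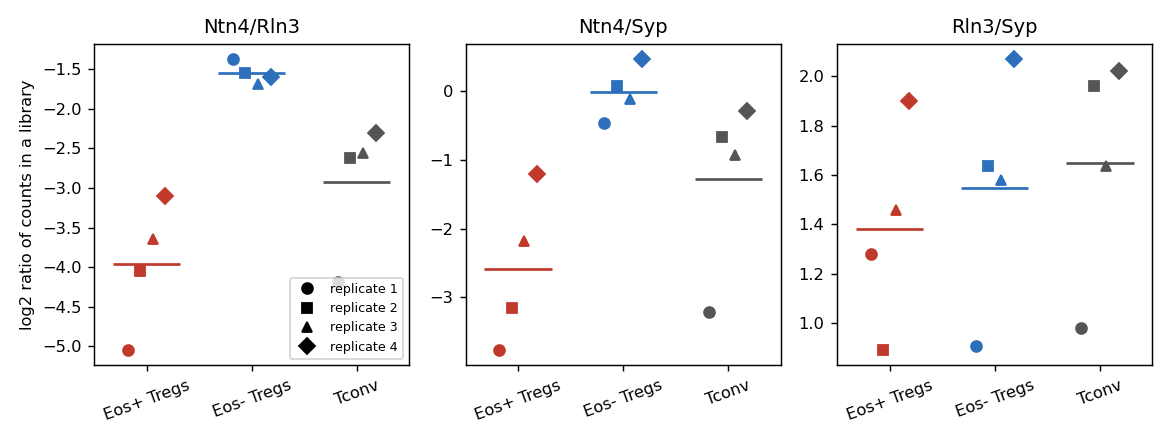
Log2 ratio of the counts of 2 genes within each library, with 1 symbol per replicate number and a bar at the group mean. The ratios of Ntn4 to Rln3 and of Ntn4 to Syp are lower in all 4 Eos+ Treg libraries than in all 4 Eos- Treg libraries, while the ratio of Rln3 to Syp overlaps between groups.

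Against Tconv, all 3 genes were higher in Eos+ Tregs, as they were in the Eos- Tregs used to choose them. Both contrasts share the 4 Tconv libraries, so their agreement in direction is not independent. In Eos+ Tregs the edgeR log2 change was 3.72 (SE 0.47, 13.2-fold, adjusted p = 5.92e-05) for Ntn4. It was 4.84 (SE 0.19, 28.6-fold, adjusted p = 9.12e-09) for Rln3. For Syp it was 5.13 (SE 0.28, 35-fold, adjusted p = 7.8e-08). Over all genes 30.3% were called in this comparison, 17.3% higher and 13% lower in Eos+ Tregs, and 18.5% were higher with no overlap. In each of the 3 genes, 4 of 4 Eos+ Treg libraries lay above all 4 Tconv libraries.

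In Eos- Tregs, as chosen, the fold over Tconv was 49.6 for Ntn4, 22.7 for Rln3 and 24.1 for Syp, with log2 changes of 5.63, 4.5 and 4.59. Over all genes 8.76% were called higher and 5.89% lower in this contrast, with 10.5% higher and 9.64% lower without overlap, and nothing is read from that for the 3 genes. Ntn4 had the smallest fold of the 3 in Eos+ Tregs and the largest in Eos- Tregs. The mean level in Tconv was 1.97% of that in Eos- Tregs for Ntn4, 4.39% for Rln3 and 4.12% for Syp. For Foxp3, which the Tconv gate excluded, the same share was 0.350%.

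**Figure D3:**
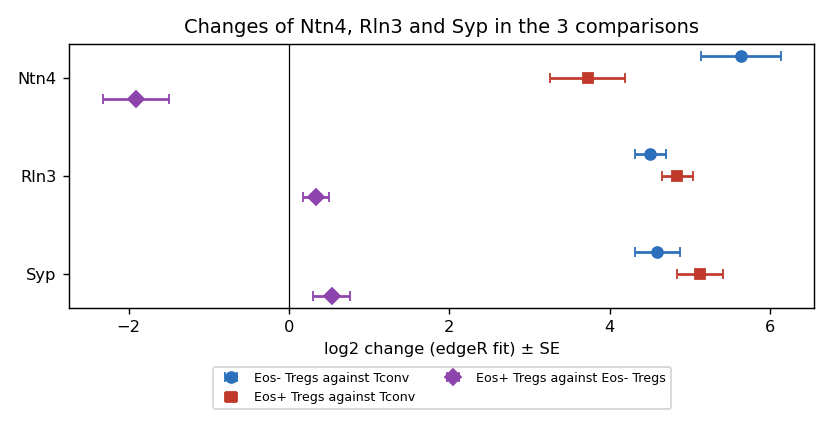
Log2 changes from the edgeR fit over all 12 libraries, with bars of 1 SE, for Ntn4, Rln3 and Syp in the 3 comparisons. Ntn4 lies at -1.91 between the Treg populations, while Rln3, at 0.34, and Syp, at 0.54, did not pass the test.

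Per length, Ntn4 was the highest of the 3 tested netrins in Eos- Tregs, at 5.35 RPKM against 1.37 RPKM for Ntn1 and 0.290 RPKM for Ntng2. Ntn1, the classical axon guidance netrin, stood at 4.87 ± 1.72 CPM in Eos+ Tregs, 8.59 ± 3.25 CPM in Eos- Tregs and 2.5 ± 0.531 CPM in Tconv, and was called higher only in the contrast of Eos- Tregs with Tconv (edgeR log2 change 1.78, adjusted p = 0.00603). Ntng2, a membrane-anchored netrin, was 1.17 CPM in Eos+ Tregs, 1.16 CPM in Eos- Tregs and 0.211 CPM in Tconv, and was called higher than Tconv in both (edgeR adjusted p = 0.0152 and 0.0291). The call in Eos- Tregs was lost when any one of Eos- Treg replicates 2 and 3 or Tconv replicates 1 and 4 was left out (adjusted p 0.0685 to 0.0898), and both were lost without the libraries numbered 1 (adjusted p = 0.0752 and 0.0513). Ntn3 and Ntn5 averaged under 1 CPM and Ntng1 had no counts. Of the 6 netrin genes, 3 were tested, and of these, Ntn4 included, 0 were higher and 1 was lower in Eos+ than in Eos- Tregs. Over all genes 9.82% were higher and 6.45% lower. The 1 lower gene was Ntn4 itself, and neither Ntn1 nor Ntng2 was called.

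Some netrin receptors and binding partners were higher in Eos+ Tregs, where Ntn4 was lower. Of 21 listed, 13 were tested, and 4 were higher and 0 lower in Eos+ than in Eos- Tregs, against 9.82% higher over all genes, with a median log2 change of 1.09. The count of 4 fell to 2 on leaving out any one of replicates 2 and 3 of the Eos+ Tregs or 2 and 4 of the Eos- Tregs. Dcc, Unc5c and Unc5d, receptors of axon guidance, had no counts in any library. Dscam, a cell adhesion receptor of neurons that binds netrins, stood at 42.3 ± 9.57 CPM in Eos+ Tregs, 9.99 ± 2.22 CPM in Eos- Tregs and 0.393 ± 0.485 CPM in Tconv. Its difference between the Treg populations (edgeR log2 change 2.08, adjusted p = 0.0272) did not pass on leaving out any one of replicates 2 and 3 of the Eos+ Tregs or 2, 3 and 4 of the Eos- Tregs (adjusted p 0.0539 to 0.0767), nor with DESeq2 (adjusted p = 0.118).

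Integrins and laminins, the basement membrane side of netrin biology, included several genes that were highest in Eos+ Tregs, though not all were. Itga6, an integrin gene, was called higher than Tconv in both Treg groups and was not called between them. Over the fits without 1 library its log2 change against Tconv was 0.712 to 1.10 in Eos+ Tregs and 1.17 to 1.41 in Eos- Tregs. Bcam, a laminin receptor, was 29.9 ± 5.27 CPM in Eos+ Tregs and 5.94 ± 1.38 CPM in Eos- Tregs (edgeR log2 change 2.33, adjusted p = 0.000922). Itgb1, the shared beta chain of laminin-binding integrins, was 609 CPM in Eos+ Tregs, 173 CPM in Eos- Tregs and 234 CPM in Tconv, and was higher in Eos+ than in Eos- Tregs (edgeR log2 change 1.82, adjusted p = 0.000562). Lamc1, the laminin chain to which netrin-4 binds, was 61.4 ± 16.3 CPM in Eos+ Tregs, 13.2 ± 3.50 CPM in Eos- Tregs and 4.58 ± 2.11 CPM in Tconv (edgeR log2 change between Treg groups 2.22, adjusted p = 0.00051). Of 18 laminin and basement membrane genes, 8 were tested. In Eos+ against Eos- Tregs 2 were higher, Lamc1 and Lama5, and 0 lower, against 9.82% and 6.45% of all genes. Lama5 passed the filter on low counts only through Eos+ Tregs, so it had to differ. It reached at most 0.125 CPM in Eos- Tregs and 0.360 CPM in Tconv. With limma-voom, 4 genes of the list were called higher.

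Per length, Rln3 was the most abundant relaxin or insulin family ligand in both Treg groups, while in Tconv Insl6, at 23.6 RPKM, and Insl3, at 4.54 RPKM, averaged above its 4.09 RPKM. Insl3, a hormone of the same family known from the testis, was 7.27 ± 1.2, 5.93 ± 1.73 and 2.83 ± 0.390 CPM in Eos+ Tregs, Eos- Tregs and Tconv, and was higher in Eos+ Tregs than in Tconv (edgeR log2 change 1.36, adjusted p = 0.000907). Insl6 was 12.3, 14.0 and 16.7 CPM and passed no test. Ins1 and Ins2, the insulin genes, had no counts, and Rln1 and Insl5 averaged under 1 CPM. Of the 4 tested members, Rln3 included, 0 were called between the Treg populations, where 16.3% of all genes were. In Eos+ Tregs Insl3 was called higher than in Tconv, against 17.3% of all genes. In Eos- Tregs Insl3 was called higher than in Tconv, against 8.76% of all genes. Rln3 is counted in neither contrast with Tconv, because the Tconv libraries took part in choosing it.

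The relaxin receptors were at or near 0. Rxfp3, the receptor of relaxin-3, had counts in only 1 of 12 libraries, at 0.292 CPM in Eos+ Treg replicate 3. Rxfp2 and Rxfp4 had no counts, and Rxfp1 averaged at most 0.356 CPM in any group.

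Several enzymes that cut and trim prohormones were higher in Eos+ than in Eos- Tregs. Pcsk1, a convertase of neuroendocrine granules, was at least 8.35 CPM in each Eos+ Treg library, with a mean of 12.6 ± 5.17 CPM, and at most 0.346 CPM in Eos- Tregs, with 2.06 ± 0.558 CPM in Tconv (edgeR log2 change between Treg groups 7.04, adjusted p = 0.000144). Cpe, a carboxypeptidase of the same granules, was 10.5 ± 5.13 CPM in Eos+ Tregs and 0.331 ± 0.388 CPM in Eos- Tregs, and Cpd, a related carboxypeptidase, was 40.1 ± 13.2 and 4.86 ± 1.57 CPM. Both were higher in Eos+ Tregs (edgeR adjusted p = 0.0145 and 0.00155), though Cpe passed the filter on low counts only through Eos+ Tregs and missed the threshold with DESeq2 (adjusted p = 0.0535). Furin, the general convertase, was 91.9 ± 22.2 CPM in Eos+ Tregs, 62.2 ± 9.55 CPM in Eos- Tregs and 45.8 ± 8.99 CPM in Tconv, and rose only against Tconv (edgeR adjusted p = 0.00103). Of 19 genes of prohormone processing and granules, 9 were tested, with 3 higher (Cpe included) and 1 lower in Eos+ than in Eos- Tregs, against 9.82% and 6.45% of all genes, and Pcsk2 and the granins Chga and Scg2 averaged under 1 CPM. The 1 lower gene was Ptprn, a granule membrane protein, at 1.16 ± 0.465 and 4.81 ± 1.61 CPM (edgeR log2 change -2.05, adjusted p = 0.00144).

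In the synaptophysin family, Syngr2, like Syp, was higher in both Treg groups than in Tconv. Syngr2, a synaptogyrin found outside neurons, was 351 ± 14.5 CPM in Eos+ Tregs, 79.4 ± 12.6 CPM in Eos- Tregs and 47.2 ± 6.45 CPM in Tconv (edgeR log2 change between Treg groups 2.14, adjusted p = 3.25e-06). Sypl, the widely expressed relative of synaptophysin, was 68.6 ± 5.86, 69.3 ± 12.3 and 66.3 ± 3.46 CPM and passed no test. Syngr1 went the other way and was called lower in Eos+ Tregs than in Tconv. Its log2 change there was -1.33 to -0.90 over the fits without 1 library, and the call was lost in 5 of those 12 fits. Syngr3, a neuronal synaptogyrin, was listed at 0.440 to 2.67 CPM in Eos+ Tregs and had no counts in the other 8 libraries. Synpr, another vesicle protein of the family, had no counts at all. Syngr3 passed the filter on low counts only through Eos+ Tregs, so its call there is not counted, and of the other 4 tested members, Syp included, only Syngr2 was called between the Treg populations.

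**Figure D4:**
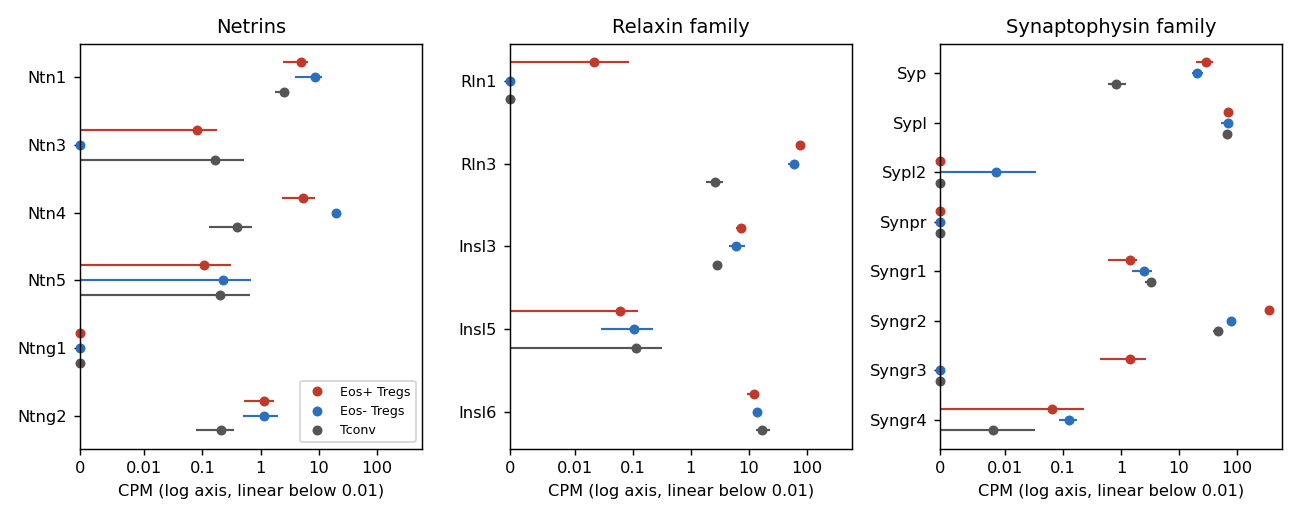
Mean CPM (points) and range over 4 libraries (lines) of the netrin, relaxin and synaptophysin family genes in the 3 groups, on a log axis that is linear below 0.01 CPM. Ntn4, Rln3 and Syp stand apart from Tconv, Syngr2 is highest in Eos+ Tregs at 351 CPM, and several relatives are at 0.

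Of 51 vesicle and exocytosis genes, 19 averaged under 1 CPM in every group, 8 of them with no counts. The 32 tested had 7 higher and 1 lower in Eos+ than in Eos- Tregs, against 9.82% and 6.45% of all genes, and a median log2 change of 0.15. The count of 7 fell to between 2 and 4 on leaving out any one of replicates 1 to 3 of the Eos+ Tregs or 2 to 4 of the Eos- Tregs. The count of 1 was 3 without Eos+ Treg replicate 4 and with the replicate number as a block, and 2 without Eos- Treg replicate 1. Snap25, Syt1 and Syn2, core genes of neuronal release, had no counts. Stx11, a syntaxin of lymphocyte granules, was 133 CPM in Eos+ Tregs, 21.1 CPM in Eos- Tregs and 8.01 CPM in Tconv (edgeR log2 change between Treg groups 2.66, adjusted p = 1.17e-05). Syt11, a synaptotagmin, was 201, 87.5 and 23.1 CPM in the same groups (edgeR log2 change 1.2, adjusted p = 0.000221). Vamp1, a vesicle SNARE, was 22.7 CPM in Eos+ Tregs and 48.8 CPM in Eos- Tregs, and fell by 1.11 on the log2 scale (edgeR adjusted p = 0.00201).

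Of 24 neuronal and neuroendocrine identity genes, 6 were tested, 9 had no counts in any library and 19 averaged under 1 CPM in every group. The transcription factors Insm1 and Neurod1 of neuroendocrine cells averaged under 0.1 CPM in each group. Of the 6, 4 were higher and 1 lower in Eos+ than in Eos- Tregs, against 9.82% and 6.45% of all genes. The 4 became 2 on leaving out Eos+ Treg replicate 4, or replicate 2 of the Eos- Tregs, while the 1 became 0 on leaving out replicate 4 of either Treg group. Nefm, 1 of the 4, lost its call in 9 of 12 fits without 1 library (edgeR adjusted p up to 0.106). The 1 lower gene was Tubb3, with a log2 change of -3.27 to -2.12 over the fits without 1 library. Against Tconv, 3 of the 6 were higher in Eos+ Tregs and 2 lower, 1 of them Tubb3, against 17.3% and 13% of all genes. Eno2, an enolase used as a neuronal marker, was 35.7 CPM in Eos+ Tregs, 15.6 CPM in Eos- Tregs and 3.48 CPM in Tconv (edgeR log2 change between Treg groups 1.19, adjusted p = 0.00811). Ddc, the decarboxylase of dopamine and serotonin synthesis, was 36.1, 3.19 and 2.78 CPM (edgeR log2 change 3.49, adjusted p = 0.000344).

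Rln3 lies next to an interleukin receptor gene and Syp lies near Foxp3. Rln3 ends 339 bases from Il27ra, which encodes a chain of the interleukin-27 receptor on the same strand, and shares no exonic base with an annotated gene. Il27ra was 375 ± 21.4 CPM in Eos+ Tregs, 488 ± 24.5 CPM in Eos- Tregs and 386 ± 29.6 CPM in Tconv. It was lower in Eos+ than in Eos- Tregs (edgeR log2 change -0.38, adjusted p = 0.00389), and it rose over Tconv only in Eos- Tregs, by 0.34 on the log2 scale, where the log2 change of Rln3 was 4.5. Of 12 tested genes within 100 kb of Rln3, 3 were higher and 1 lower in Eos+ Tregs than in Tconv, near the 17.3% and 13% of all genes.

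Syp lies 43.2 kb from Foxp3, with Ccdc22 and Cacna1f among the genes between them. Ccdc22 was 40.5 CPM in Eos+ Tregs, 60.5 CPM in Eos- Tregs and 51.4 CPM in Tconv, and Cacna1f, a calcium channel gene 3.27 kb from Syp, averaged under 1 CPM in each group. On the other side Plp2, a membrane protein gene 14.7 kb away, was 136 ± 7.82, 63.9 ± 5.58 and 27.0 ± 4.11 CPM, and was higher in Eos+ than in Eos- Tregs (edgeR log2 change 1.09, adjusted p = 3.94e-05). Of 11 tested genes within 100 kb of Syp, 6 were higher and 0 lower in each Treg group than in Tconv, where 17.3% of all genes were higher in Eos+ Tregs and 8.76% in Eos- Tregs. They included Foxp3, Flicr, which overlaps Foxp3 and cannot be told apart from it by strand here, Ppp1r3f and Plp2. The cells were sorted on Foxp3, so its call was fixed by the gate, and Flicr may count the same signal again. Nothing is read from the 6 for Syp. In the libraries numbered 1, where Foxp3 was 55.0 and 53.3 CPM, Syp was 31.6 and 25.6 CPM, within or above the range of the other Treg libraries.

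Syp shares 875 of its 5211 exonic bases, 16.8%, with Gm14703, an antisense transcript. Reads in that stretch could belong to either, and the Syp count was not whole in 8 of 12 libraries. Gm14703 was counted at no more than 1.00 CPM in any library. Ntn4 shares no exonic base with its neighbours, and 4 genes tested within 100 kb of it had 0 calls in each of the 3 edgeR comparisons, the smallest unadjusted p being 0.065, for Ccdc38 in Eos+ Tregs against Tconv.

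**Figure D5:**
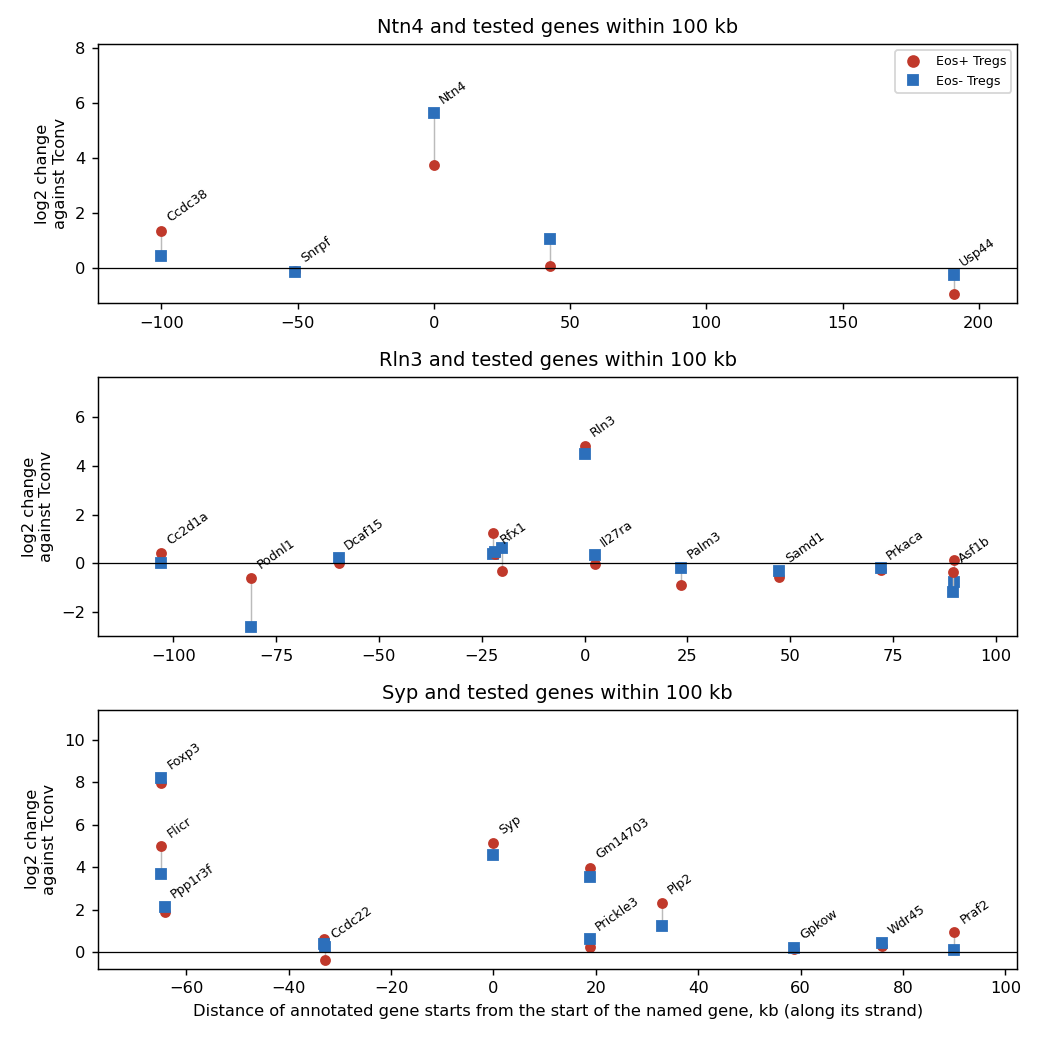
Log2 change against Tconv (edgeR) of Ntn4, Rln3, Syp and the tested genes within 100 kb of each, placed by the distance between annotated starts in kb. Rln3 and Ntn4 lie above their neighbours. Around Syp, Foxp3, which set the gate, Flicr, Ppp1r3f and Plp2 are among the 6 genes called higher in each Treg group.

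Over the 12 libraries, log2 CPM of Rln3 and Syp had a Pearson correlation of 0.98, against 0.89 for Ntn4 with Rln3 and 0.84 for Ntn4 with Syp. These are descriptions in which the 3 groups make most of the spread. Within the 8 Treg libraries the values were 0.24, -0.66 and -0.81. Of 10998 genes compared, those most like Ntn4 were Ndfip2 (r = 0.984), Eef1akmt1 (0.976), Kcnip2 (0.975), Tmem121b (0.972) and Arhgap20os (0.968). Tmem121b was 10.4 ± 1.62, 21.6 ± 6.95 and 1.38 ± 0.388 CPM in Eos+ Tregs, Eos- Tregs and Tconv. Those most like Rln3 were Sptbn4 (0.995), Lrrc32 (0.993), Apol9b (0.992), Tnfrsf4 (0.991) and Tnfrsf18 (0.990), of which Lrrc32, Tnfrsf4 and Tnfrsf18 encode surface proteins of Tregs. Those most like Syp were Apol9b (0.991), Med7 (0.986), Wnt3 (0.985), Rln3 (0.985) and Il2ra (0.982), the last the high-affinity interleukin-2 receptor chain of Tregs.

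Markers of other thymic cells moved with some of these results. The summed level of 20 markers of medullary epithelium, of which 4 had no counts and 15 averaged under 1 CPM in every group, was 88.2 to 104 CPM in Eos+ Tregs, 48.9 to 64.1 CPM in Eos- Tregs and 47.0 to 67.3 CPM in Tconv. The sum thus rests on the few listed genes above 1 CPM, most of it on genes other than Epcam, and is not read as an epithelial level. Of the 6 markers tested, 2 were higher and 0 lower in Eos+ than in Eos- Tregs, against 9.82% and 6.45% of all genes. They were Epcam and Aire. Aire passed the filter on low counts only through Eos+ Tregs, so it had to differ. Its call was also lost in 6 of 12 fits without 1 library (edgeR adjusted p up to 0.0817). Epcam was 30.4, 12.7 and 6.93 CPM in the 3 groups, while the keratin genes Krt5 and Krt14 averaged under 1 CPM. Cdh1, an epithelial gene of the same list, averaged 2.88 CPM in Eos+ Tregs, 1.48 CPM in Eos- Tregs and 9.45 CPM in Tconv, and passed no test. The 12 markers of thymic stroma and endothelium had sums of 104 to 164 CPM in Eos+ Tregs, 219 to 327 CPM in Eos- Tregs and 191 to 218 CPM in Tconv. Nearly all of each sum was Pecam1, an adhesion molecule that leukocytes also carry, at 136, 268 and 204 CPM, and 10 of the other 11 averaged under 1 CPM in every group. Pecam1 was the 1 of 5 tested that was lower in Eos+ than in Eos- Tregs (edgeR log2 change -0.98, adjusted p = 0.000828), and Col1a2, a collagen gene of stroma, was 2.82 CPM in Eos+ Tregs and 0.194 CPM in Eos- Tregs.

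B cell markers, 12 in all, summed to 1401 to 1840 CPM in Eos+ Tregs, 177 to 476 CPM in Eos- Tregs and 231 to 407 CPM in Tconv, most of it Ighm. Of 11 tested, 4 were higher in Eos+ than in Eos- Tregs and 0 lower, against 9.82% and 6.45% of all genes. The 14 markers of dendritic cells and macrophages summed to 52.3 to 133 CPM, 6.95 to 83.0 CPM and 18.7 to 55.6 CPM in Eos+ Tregs, Eos- Tregs and Tconv, with 3 of 13 tested called higher in Eos+ than in Eos- Tregs. Of 10 markers of double-positive thymocytes, 1 was lower in Eos+ than in Eos- Tregs, and of 11 tested markers of CD8, NK and gamma-delta T cells, 1 was higher. The part of all these other cells in the levels of Ntn4, Rln3, Syp and their relatives was not tested. Without the 3 libraries numbered 1, the log2 change of Ntn4 between the Treg populations was -1.70 (edgeR adjusted p = 0.00617), that of Rln3 0.23 (adjusted p = 0.47) and that of Syp 0.62 (adjusted p = 0.11).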

How the data were processed

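Expected counts, not scaled for depth or length, are what the authors deposited for each gene. The genome build mm10 and the programs RSEM 1.3.1, STAR 2.7.0f and cutadapt 1.18 are named in the submitters' processing notes, and settings are not given in the sources used here. Per the labels' protocols, 1 ng of RNA was made into cDNA by template switching and into libraries by tagmentation, a method that does not mark strand. RSEM divides ambiguous reads among genes, and 9.54% to 10.7% of values per library were not whole.

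Expected counts were rounded and tested with edgeR 4.0.16 (R 4.3.3), using TMM factors, filterByExpr, 1 mean per group over all 12 libraries and the quasi-likelihood F test, adjusted by Benjamini-Hochberg per comparison at 0.05. CPM uses TMM-scaled totals, and RPKM divides it by the union exon length in GENCODE M21, which matched all 55450 IDs. Likeness was the Pearson correlation of log2 CPM (prior count 2) among genes averaging at least 1 CPM. Alternatives were RLE factors, DESeq2 1.42.0, limma-voom (limma 3.58.1), other filters, fits to 2 groups, the replicate block, and fits without each library or the libraries numbered 1. The edgeR procedure was also run on simulated counts with the same spread setting for every gene. These libraries need not share that setting, so that run does not bear on the calls here. The filter keeps a gene counted in 1 group alone, so a low gene kept that way had to differ, and list counts are descriptions.

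Same-numbered libraries share an identifier in the library names of the labels, and their deviations from group means correlated in each pair, at 0.138 to 0.318, so the numbers were taken to pair the samples. Replicates within a group differed by more than counting noise in each of 18 pairs (chi-square per degree of freedom 24.3 to 75.0).

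The genes and the gene lists were chosen with earlier results of these data known. Genes to name were, per list, up to 6 called genes with the largest change and the members of a ligand, receptor or synaptophysin family, the 5 genes most like each of Ntn4, Rln3 and Syp, and neighbours within 100 kb. The text names a subset of these, picked after the values were seen, as were the ratios.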

Additional observations from a re-analysis of the deposited data

Results flagged for a closer look

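In 138 groups of 4 libraries, each gene and group taken singly, 8 had a library far from the other 3, and chance alone marks about 1 in 20. None of the 8 was of Ntn4, Rln3 or Syp. Pcsk1 was 0.346 CPM in Eos- Treg replicate 3 and 0 to 0.0287 CPM in the others. Cpe was 0.404 CPM in Tconv replicate 3 and 0 in the others. Cpd was 2.51 CPM in Eos- Treg replicate 2 and 5.57 to 5.69 CPM in the others. Syt11 was 176 CPM in Eos+ Treg replicate 4 and 207 to 211 CPM in the others. Map2, a neuronal microtubule protein gene, was 3.99 CPM in Eos+ Treg replicate 4 and 1.49 to 1.79 CPM in the others. Aire was 0.883 CPM in Tconv replicate 1 and 0 in the others. Lama5, a laminin chain gene, was 0.125 CPM in Eos- Treg replicate 1 and 0 in the others, and 0.360 CPM in Tconv replicate 1 and 0 to 0.0311 CPM in the others.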

How the results depend on the processing

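The calls of Ntn4, Rln3 and Syp in the 2 tested comparisons kept their direction and their side of the threshold under every alternative run, except that limma-voom called Rln3 higher in Eos+ than in Eos- Tregs (log2 change 0.34, adjusted p = 0.0436), and the cause was not tested. Leaving out each of the 12 libraries, the Ntn4 log2 change between the Treg populations ran from -2.24 to -1.66 (adjusted p 0.00391 to 0.024), that of Rln3 from 0.24 to 0.43 and that of Syp from 0.39 to 0.69. Against Tconv in Eos+ Tregs the ranges were 3.39 to 4.19, 4.70 to 5.03 and 4.98 to 5.35. Over the 4 same-numbered pairs, both ratios with Ntn4 had an exact p of 0.125, the smallest that pairing allows. With the replicate number as a block, the edgeR log2 change of Ntn4 between the Treg populations was -2.07 (adjusted p = 0.000768), 3498 genes were called in place of 2500, and no call of Ntn4, Rln3 or Syp changed. The block ended the call of Syngr1 as lower in Eos+ Tregs than in Tconv (adjusted p = 0.0537). The log2 difference in the ratio of Rln3 to Syp ran from -0.379 to 0.00913 over the fits without 1 library, and changed sign without Eos- Treg replicate 4. Without the libraries numbered 1, the ratios of Ntn4 to Rln3 and to Syp differed by -1.99 and -2.33 with an exact p of 0.1, the smallest that 3 libraries against 3 allow. The other named genes, list counts and ratios were classed by rule. Of their alternative values, 159 ended or lowered a call, 10 added to one and 1 changed sign. The other 2595 were classed as the same, a class that for a list count allows small shifts. Without the libraries numbered 1, for example, 7 vesicle and exocytosis genes higher in Eos+ than in Eos- Tregs became 5. With the replicate block, 4 netrin receptors and binding partners higher in Eos+ than in Eos- Tregs became 6. Low counts limit Ntn4 in Tconv, at 4 to 27 counts per library.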
